A study of Mus musculus with 2 samples.

Results

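The genes described here are 10 genes of the ETS family of transcription factors other than GABP: Ets1, Ets2, Fli1, Elf1, Elf2, Elf4, Elk1, Elk3, Elk4 and Etv6. They were listed by name as ETS factors expressed in lymphocytes, by a rule that uses no binding value, and are 10 of the 21938 protein-coding genes that the GENCODE M21 annotation places on chromosomes 1 to 19, X and Y. For each gene, the peaks of GABPα binding within 1000 bp of an annotated transcript start and the peaks inside the gene body were collected, and 5 of the 6782 peaks lay within 1000 bp of a start of a member. Binding was measured by ChIP-seq, in which DNA crosslinked to a protein is pulled down with an antibody and sequenced, in CD4+ T cells purified with MACS beads from wild-type mice of the C57BL/6 strain. There was 1 library from an anti-GABPα antibody and 1 library of input DNA, which carried no antibody step and served the authors as the control for peak calling. In the study, wild type is also the name for Gabpa f/f littermates without Cre, and whether the ChIP mice carried floxed alleles, how many were used and their age are not given in the sources used here. A peak list holds no expression values, so neither the cell type nor the expression of the members in these cells could be checked. The list gives a position for each peak and no height, so a peak's width was the only measure of its size, and with 1 ChIP library every value describes that library and no p-value is given.

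ETS factors share a winged helix-turn-helix DNA-binding domain, the ETS domain, that contacts a GGAA core, and the bases on either side of the core differ in how well each factor binds them. GABPα is itself an ETS factor, and it binds DNA together with a GABPβ subunit that carries the activating part of the complex. Members of the family read nearly the same sequence as GABPα. Where GABPα was bound at the genes that encode them is a separate question, and it is the one described here.

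GABPα was bound at the transcript starts of 2 of the 10 genes, Elf2 and Elk4. Elk4 encodes a ternary complex factor that binds DNA beside SRF, and Elf2 encodes a factor of the ELF subfamily. The sequences that carry this result are shown first, because the peaks of both genes differed in which form of the GABPα recognition sequence they held. The recognition sequence was searched as CCGGAAG on either strand, then without its first base as CGGAAG, and then as the core GGAA. Each shorter form is contained in the longer one, so every CCGGAAG is also counted as a CGGAAG and a GGAA. All sequences are from the RefSeq copy of GRCm38.p6, the assembly called mm10, and the stretches of peaks are printed in the direction of the gene, with copies of the longest form present in capitals, so that TTCC in capitals is a GGAA of the other strand. Only the bases of each peak that lie outside exons of the gene itself are given.

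The first Elk4 peak held the only CCGGAAG in a peak of the 10 genes, and its 148 bases upstream of the 5′ end of the gene (chr1:132007459-132007606, plus strand) read as follows. The stretches of the second peak (chr1:132008042-132008098) and of the third peak (chr1:132008228-132008296) follow for comparison, since neither holds CCGGAAG and the second holds no core at all.
Elk4 peak at the 5′ end: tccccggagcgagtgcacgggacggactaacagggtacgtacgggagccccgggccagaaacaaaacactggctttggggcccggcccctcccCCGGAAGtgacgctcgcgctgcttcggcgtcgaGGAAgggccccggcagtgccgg
Elk4 middle peak: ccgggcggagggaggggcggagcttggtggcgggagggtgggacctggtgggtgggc
Elk4 last peak: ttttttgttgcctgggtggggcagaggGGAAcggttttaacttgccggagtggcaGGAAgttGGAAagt

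The wider Elf2 peak lies in an intron and had the most cores of the member peaks. Its central 300 bases (chr3:51276055-51276354, minus strand) hold all 3 of its CGGAAG copies, none of them preceded by the C of the full sequence. The 91 bases of the other Elf2 peak that lie upstream of the cluster of starts (chr3:51277576-51277666, minus strand) hold 1 core.
Elf2 intronic peak: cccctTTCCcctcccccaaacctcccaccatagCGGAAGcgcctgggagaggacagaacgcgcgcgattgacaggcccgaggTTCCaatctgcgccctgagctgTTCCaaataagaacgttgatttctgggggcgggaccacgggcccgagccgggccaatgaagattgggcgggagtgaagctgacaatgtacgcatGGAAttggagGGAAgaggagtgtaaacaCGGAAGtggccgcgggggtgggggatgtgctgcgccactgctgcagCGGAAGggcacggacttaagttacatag
Elf2 start peak: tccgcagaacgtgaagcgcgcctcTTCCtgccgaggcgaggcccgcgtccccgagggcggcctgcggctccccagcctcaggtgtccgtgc

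Elf4 had a peak far from its starts, and this is shown whole because it is an intronic interval with the core in 3 copies and no CGGAAG (chrX:48433640-48433749, minus strand).
Elf4 intronic peak: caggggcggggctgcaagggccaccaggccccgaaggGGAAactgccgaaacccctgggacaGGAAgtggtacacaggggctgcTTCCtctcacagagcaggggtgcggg

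Single copies of the recognition sequence are given as 29-base sites, read in the direction of the copy, with CCGGAAG or the 7-base form that takes its place in capitals. The Elk4 site (chr1:132007541-132007569, plus strand) and the Elf2 site next to a start (chr3:51277510-51277538, minus strand) were inside a peak. The other Elf2 site (chr3:51277651-51277679, plus strand) straddled the upstream edge of the start peak. Those of Fli1 (chr9:32541104-32541132, minus strand), Elk3 (chr10:93284847-93284875, minus strand) and Etv6 (chr6:134247537-134247565, minus strand) were outside all peaks. The 7-base copy of a second Elk4 site (chr1:132008200-132008228, plus strand) was also in no peak, although the last printed base is the first of the third Elk4 peak.
Elk4 site in a peak: cggcccctcccCCGGAAGtgacgctcgcg
Elf2 site in a peak: ctgggcgcgggGCGGAAGgatcgcgttgc
Elf2 site at a peak edge: cttcacgttctGCGGAAGcgaagtctgca
Fli1 site outside peaks: gcgccggggtcCCGGAAGacgtggccgct
Elk3 site outside peaks: agctcctcaagGCGGAAGaagtggccaag
Etv6 site outside peaks: tctgagttataGCGGAAGtaggaaggggg
Elk4 site beside a peak: aagtcccttggGCGGAAGgtggcagcggt

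Next, the count of bound members was set beside the genome. At least 1 peak reached within 1000 bp of a start at 2 of the 10 genes (20%, Wilson 95% interval 5.67 to 51.0), and at 3880 of all 21938 protein-coding genes (17.7%, 17.2 to 18.2). Intervals cover counting error only. Among the 10126 protein-coding genes with at least 4 distinct transcript starts, the median of the members, the share was 26.5% (25.7 to 27.4). The members' share is near both values, so the count of 2 does not set the ETS genes apart from other genes. A peak overlapped the gene body of 3 members, Elf2, Elk4 and Elf4, against 19.0% of all protein-coding genes and 25.0% of the 3361 genes of at least the members' median length of 75833 bp.

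Both bound genes had more than 1 peak. Elf2 had 2 peaks within 1000 bp of a start and Elk4 had 3. At least 2 such peaks were found at 301 protein-coding genes (1.37%), and at least 3 at 25 genes (0.114%), of which Elk4 is 1. These shares are over all 21938 genes, of which 3880 had any such peak, so they are larger among bound genes. They were not matched for the number of distinct starts, which was 7 at Elk4 and 13 at Elf2. The thresholds of 2 and 3 peaks were chosen after the peaks of the members had been seen, so the shares describe how often such a gene occurs and are no test.

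**Figure D1:**
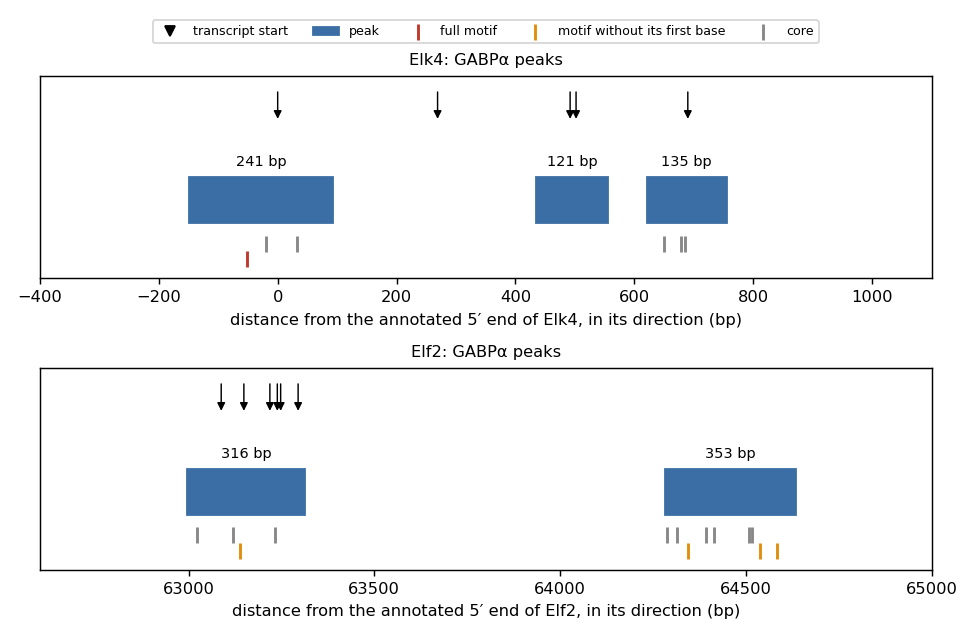
GABPα peaks (blue bars, width in bp) at Elk4 and Elf2, against the distance from the annotated 5′ end of each gene in its direction (bp); arrows mark transcript starts, and ticks under the bars mark the recognition sequence, its form without the first base and the remaining copies of the core inside peaks. The 3 Elk4 peaks have midpoints from -28 to 688 bp, and the 2 Elf2 peaks have theirs at 63154.5 and 64458 bp.

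Elk4 (ENSMUSG00000026436.15, chr1:132007607-132032612, plus strand) is one of the ternary complex factors, which join SRF at serum response elements and are phosphorylated by MAP kinases downstream of receptors including the T-cell receptor. The first Elk4 peak (chr1:132007459-132007699) was 241 bp wide, which is the 80.0th percentile of all 6782 widths. All percentiles of width given here are over that whole list, whose median was 157 bp. Peaks near a protein-coding start were wider, with a median of 210 bp and an upper quartile of 267 bp. The first Elk4 peak was below that quartile. This peak covered the 5′ end of the gene, with its midpoint 28 bp upstream, and divided into 148 bp before the gene and 93 bp of 5′ UTR. The whole peak also lies in an intron of Gm29103, a noncoding gene on the same strand. Its CCGGAAG lay at 132007552 to 132007558 on the plus strand, 52 bp upstream of the start and 24 bp from the midpoint of the peak. The same peak held 2 further GGAA cores, and 11.2% of its bases were soft-masked as repeats in the reference.

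The second Elk4 peak (chr1:132008042-132008162) was 121 bp wide (27.4th percentile). It covered the starts of 2 noncoding transcripts of the gene at 132008099 and 132008109. It held no GGAA on either strand, an absence shared by 43 of the 3459 peaks within 1000 bp of a protein-coding start (1.24%). The absence was also found in 24 of the 505 such peaks no wider than the third Elk4 peak (4.75%). That limit of 135 bp is above the width of the second peak. The GC content of the second peak was 77.7%, against a median of 64.3% over the 3459 peaks. The third Elk4 peak (chr1:132008228-132008362) was 135 bp wide (37.4th percentile), covered the protein-coding start at 132008297 and held 3 cores, with a GC content of 58.5%. Gaps of 342 bp and 65 bp separated the 3 peaks, and merging peaks within 500 bp turned them into 1 interval of 904 bp. Whether they are separate sites of binding or parts of 1 region was not tested. Of the 7 distinct starts of Elk4, 4 were covered by a peak, the protein-coding start at 132007876 was 166 bp from one, and the other 2, deep in the gene, were 9446 and 10081 bp away.

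Elf2 (ENSMUSG00000037174.18, chr3:51252720-51340663, minus strand) encodes an ELF subfamily factor that exists as activating and repressing isoforms. Its peaks were at an internal group of starts, not at the 5′ end of the gene. The start peak (chr3:51277351-51277666) was 316 bp wide (the 93.3th percentile) and covered all 6 starts between 51277368 and 51277575, with its midpoint 63154.5 bp into the gene. It included 225 bp of 5′ UTR of these transcripts, held no repeat-masked base, and had a GC content of 76.3%. It held 1 CGGAAG at 51277521 to 51277526, with its middle 10 bp upstream of the start at 51277514, and 3 further cores.

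The intronic Elf2 peak (chr3:51276029-51276381) was the widest of the member peaks at 353 bp, at the 95.8th percentile. Its nearest edge was 987 bp downstream of the start at 51277368, just inside the 1000 bp limit, and 969 bp separated it from the start peak. With 9 GGAA cores, 3 of them as CGGAAG, it held more cores than any other member peak. A second annotated gene, 4930577N17Rik (of the annotation type TEC, for a gene model yet to be tested by experiment), runs on the opposite strand from 51276759 to 51278383, and its start is 378 bp from the end of the intronic peak. The start peak lies wholly within the exon of that gene. Which of both genes the intronic peak belongs to cannot be told apart from its position.

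The 4 starts at the 5′ end of Elf2, between 51340561 and 51340663, were 62895 to 62997 bp from the nearest peak, although their GC content of 77.2% to 79.6% and 70 to 76 CpG dinucleotides within 250 bp were above those of the bound internal starts, at 67.1% to 73.1% and 57 to 63 CpG. Among the 3880 protein-coding genes with a peak near any start, 284 (7.32%) had none within 1000 bp of the 5′ end of the gene, and Elf2 is one of them.

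Elf4 (ENSMUSG00000031103.12, chrX:48411046-48463132, minus strand), a relative of Elf1 that limits proliferation of CD8+ T cells, had a single peak in the gene body and none near a start. This peak was 110 bp wide, at the 16.7th percentile, lay wholly in an intron and was 20420 bp from the nearest start. It held 3 cores, no CGGAAG and no repeat-masked base, and had a GC content of 68.2%. All 6 peaks of the members lay in sequence where every 36-base stretch, the length of the reads, occurs 1 time in the genome.

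**Figure D2:**
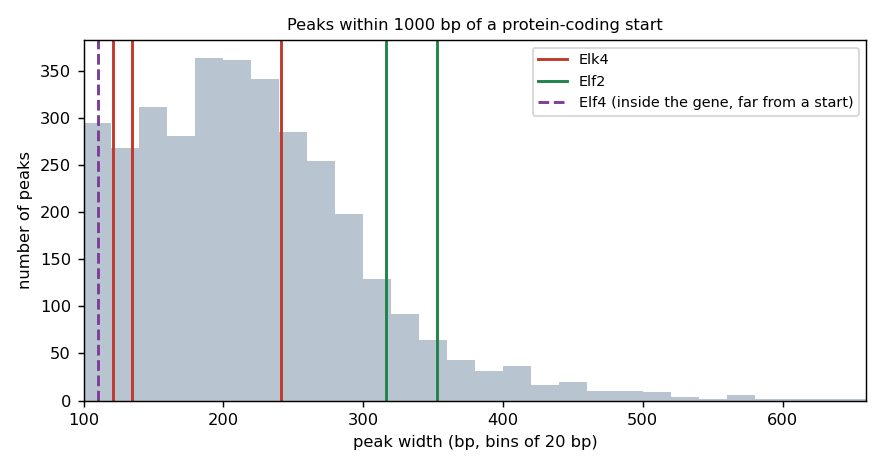
Widths of the 3459 peaks within 1000 bp of a protein-coding transcript start (grey histogram, number of peaks per bin of 20 bp), with lines at the widths of the Elk4, Elf2 and Elf4 peaks; 18 peaks wider than 660 bp are beyond the axis. Both Elf2 peaks lie above the upper quartile of 267 bp, and the middle and last Elk4 peaks and the Elf4 peak lie below the lower quartile of 159 bp.

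The narrowest of the 5 promoter peaks was 121 bp, the widest 353 bp and the median 241 bp wide, against a median of 210 bp for all peaks near a protein-coding start and 157 bp for the whole list. The widths overlapped the general distribution, and both Elf2 peaks were wider than every Elk4 peak. That order holds only with the 3 Elk4 peaks taken separately. Merged within 500 bp they form 1 interval of 904 bp, wider than either Elf2 peak, and the Elf2 peaks stay apart. Of the 5 peaks, 4 covered a start, and the median distance from a peak's midpoint to the nearest start of its gene was 5.5 bp.

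The recognition sequence was then compared. CCGGAAG was present in 1 of the 5 member peaks, and in 1979 of the 3459 peaks near protein-coding starts (57.2%). CGGAAG was in 3 of the 5, against 76.6%, and GGAA in 4 of the 5, against 98.8%. Among the 2924 peaks of 121 to 353 bp, the widths of the member peaks, these shares were 58.3%, 78.5% and 99.1%. The 5 peaks come from 2 genes, and no difference from these shares is read from so few. Sequences of other factors were also counted on both strands. GGGCGG, bound by Sp and KLF factors, was in 3 of the 5 peaks, namely both Elf2 peaks and the second Elk4 peak, against 60.7%, and CCAAT, bound by NF-Y, was in the intronic Elf2 peak alone, against 27.6%. TGTGGT of RUNX factors, GCATGCGC of NRF1 and TGACGTCA of CREB and ATF factors were in none of the 5, and were in 7.72%, 4.63% and 3.35% of the 3459.

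The other 8 genes had no peak within 1000 bp of any of their 29 starts, and their nearest peaks were 20420 to 636527 bp from a start with a median of 112845.5 bp. Among the Ets genes proper, Ets1 (chr9:32636221-32757820, plus strand), which T cells need for normal survival and cytokine production, was 65325 bp from the nearest peak. That distance is from the start of a noncoding transcript of Ets1, and its protein-coding starts were 125126 to 125488 bp from the peak. Fli1 (chr9:32422204-32542861, minus strand), best known for megakaryocyte and blood vessel development, was 27865 bp from the nearest peak, which was the same peak for both genes. Ets1 and Fli1 are neighbours 93359 bp apart that are read away from each other, and the 335617 bp they span together held 1 peak (chr9:32570726-32570896, 171 bp), with no CCGGAAG, no repeat-masked base and no gene start within 1000 bp. Ets2 (chr16:95702075-95721051, plus strand), the closest relative of Ets1 and like it a target of MAP kinases, was 185494 bp from the nearest peak. That peak lay in the body of its neighbour Erg, was 155 bp wide and consisted wholly of repeat-masked bases.

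Elf1 (chr14:79481194-79582494, plus strand), which binds enhancers of T-cell genes, was 29371 bp from the nearest peak, an interval of 161 bp within 1000 bp of a start of the gene Kbtbd6. Another peak lay 4693 bp from its gene body. Elk3 (chr10:93247414-93311135, minus strand), which represses in unstimulated cells, was 160366 bp from a peak of 264 bp. Elk1 (chrX:20933395-20950608, minus strand), another partner of SRF, was 636527 bp from a peak of 108 bp that was wholly repeat-masked. Etv6 (chr6:134035700-134270158, plus strand), a repressor that blood stem cells require, was 211905 bp from a peak of 174 bp that was also wholly repeat-masked. The ELF and ternary complex branches each had 1 gene with a peak at its starts and 2 without.

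**Figure D3:**
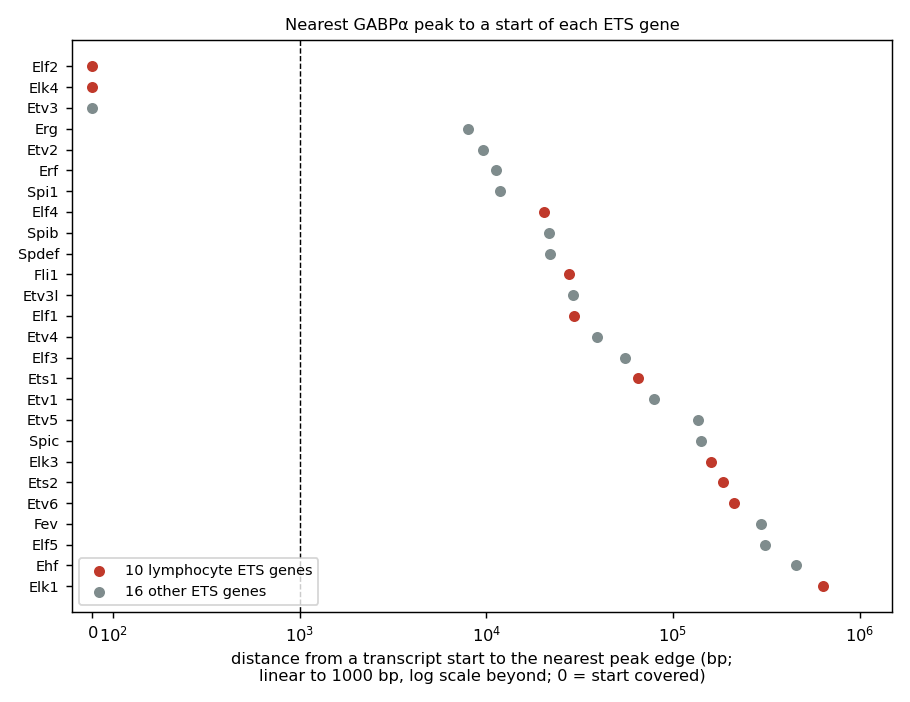
Distance from a transcript start to the edge of the nearest GABPα peak (bp; linear to 1000 bp and logarithmic beyond, with 0 for a covered start) for the 10 ETS genes (red) and 16 other genes of the family (grey, including an annotated pseudogene), in order of distance; the dashed line is at 1000 bp. Elf2, Elk4 and Etv3 are at 0, and the other 8 of the 10 genes run from Elf4 at 20420 bp to Elk1 at 636527 bp.

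Placement of the reads cannot be seen in a peak list, but the sequence around the starts can be. Of the 49 distinct starts of the 10 genes, 10 were covered by a peak and 11 were within 1000 bp of one, and at 45 of the 49 every 36-base stretch within 250 bp occurred 1 time in the genome. The lowest share was 72.7%, at an internal start of Ets2. Each of the 8 genes without a peak had at least 1 start where the share was 100%.

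The 10 genes also differed in the sequence at their starts, which the choice of members had not used. Within 250 bp of a start, Elk4 alone held CCGGAAG, as did 4674 of all protein-coding genes (21.3%). Protein-coding genes with no copy had a peak in 8.42% of cases, those with 1 copy in 44.5%, those with 2 in 71.5% and those with 3 or more in 85.7%. Elk4 fell in the group with 1 copy, and the other 9 genes, Elf2 included, in the group with none. When the 9 were divided further by CGGAAG, a division chosen after their values were seen, 6 genes (Ets1, Ets2, Fli1, Elf1, Elf4 and Elk1) had neither form, and none of the 6 had a peak near a start, against 4.61% of the 12942 protein-coding genes of that kind. Elk3 and Etv6 held 1 copy of CGGAAG and had no peak, in a group where 15.1% of 3241 genes did. Elf2 held 2 copies and fell in a group where 33.9% of 1081 genes had a peak.

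**Figure D4:**
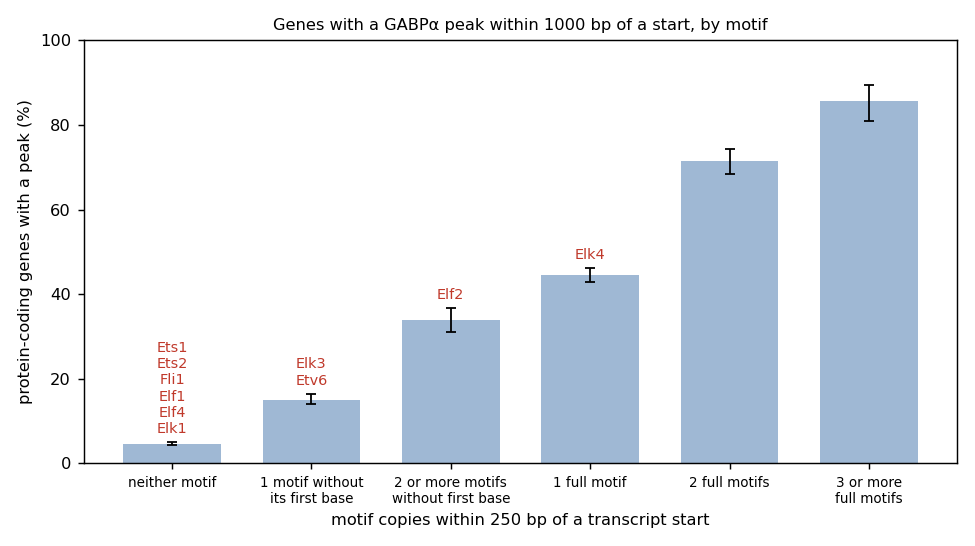
Share of protein-coding genes with a GABPα peak within 1000 bp of a start (%, bars with Wilson 95% intervals) by the copies of the recognition sequence within 250 bp of a start, with the ETS genes of each group named above its bar. The share rises from 4.61% with neither form to 85.7% with 3 or more full copies, and 6 of the 10 genes are in the lowest group.

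Single copies showed how the sites of the members compare with others of their kind. Of all CCGGAAG copies within 100 bp of a protein-coding start, 56.2% were in a peak, as was the Elk4 copy at 52 bp. Beyond that and up to 250 bp the share was 16.5%, from there to 500 bp it was 5.78%, and from there to 1000 bp it was 1.86%. Fli1 held a CCGGAAG 477 bp downstream of its start at 32541595, outside the 250 bp window and 29608 bp from the nearest peak, at a distance where few copies were bound. The copies also differed in the neighbouring bases. With 1 more base on either side, the Elk4 copy read CCCGGAAGT and the Fli1 copy CCCGGAAGA, and within 1000 bp of a start 42.9% of 749 copies of the first form and 13.6% of 655 copies of the second were in a peak. Of the 335 copies of the second form over 250 bp from a start, 3 were (0.896%). The first form was not split by distance, so these shares cannot tell the neighbouring bases from the distance to a start. In peaks near starts, CCCGGAAGT made up 12.4% of the 2572 CCGGAAG copies, behind GCCGGAAGT at 16.3% and ACCGGAAGT at 12.5%, and CCCGGAAGA made up 3.46%.

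Within 250 bp of a start, the forms with another first base were in a peak less often than the 43.6% of CCGGAAG, at 27.0% for GCGGAAG, 16.1% for ACGGAAG and 8.39% for TCGGAAG. These shares were not limited to places without a CCGGAAG nearby, so they are not the shares for genes that lack it. All copies with another first base near a start of the members were GCGGAAG. The one 10 bp upstream of an Elf2 start was in the start peak, and the one that straddles the edge of that peak had its middle 90 bp upstream of the start at 51277575. The Elk3 copy, 114 bp downstream of an internal start, and the Etv6 copy, 14 bp upstream of an internal start of a noncoding transcript, were 160252 and 423756 bp from the nearest peak. The Elk4 copy lay 83 bp upstream of the start at 132008297, between the second and the third peak, and its middle was 14 bp short of the third peak.

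CpG content near the starts was counted as well. With the richest start of each gene taken, 7 members had at least 50 CpG dinucleotides within 250 bp, from 54 at Elf4 and Etv6, through 62 at Ets1 and Ets2, 68 at Elf1 and 72 at Elk4, to 76 at Elf2. Fli1 had 20, Elk1 28 and Elk3 45. Of the 7 genes, 2 had a peak, against 27.7% of the 5274 protein-coding genes at or above 50, and none of the other 3 did, against 14.5% of 16664. Ets1, Ets2, Elf1 and Elf4 had CpG-rich starts and neither CCGGAAG nor CGGAAG, and none of these 4 had a peak, where 10.5% of 2138 genes of that kind did. The limit of 50 was chosen after the values were seen, and CpG-rich windows hold more copies of sequences with a CG in them.

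**Figure D5:**
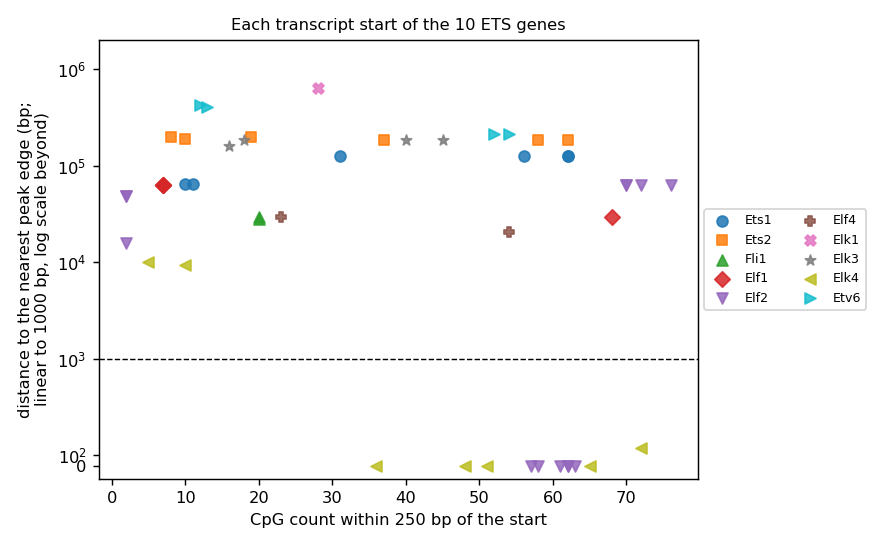
Distance to the nearest GABPα peak edge (bp; linear to 1000 bp and logarithmic beyond) against the number of CpG dinucleotides within 250 bp, for each of the 49 transcript starts of the 10 ETS genes; the dashed line is at 1000 bp. The 11 starts under the line belong to Elf2 and Elk4, while starts of Ets1, Ets2, Elf1, Elf2, Elf4 and Etv6 with over 50 CpG lie far above it.

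RefSeq promoters, taken from 250 bases before to 50 after each start, gave a second view of the same sequence. They matched 8 of the 10 genes, and among these Elk4 alone had CCGGAAG, which 8.86% of the 32851 promoters of the genome held. Of the promoters of Elf2, the one at the internal starts held 2 CGGAAG and the one at the 5′ end held none.

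The rest of the family was counted for comparison. Of 16 other ETS genes, which include an annotated pseudogene, 1 had a peak that near a start. This was the repressor gene Etv3, whose peak (chr3:87525440-87525686, 247 bp) covered the start at 87525578. Etv3 held no CCGGAAG within 250 bp of a start and 4 copies of CGGAAG, where Elf2 held 2. Etv4, with 4 copies of CGGAAG, and Spdef, with 2, also had no CCGGAAG there, and their nearest peaks were 39044 and 21870 bp from a start. Both are named for this sequence, after their values were seen. Over all 25 protein-coding ETS genes outside GABP, 3 had a peak near a start (12%, 4.17 to 30), again around the genome's share. Gabpa, which encodes the immunoprecipitated protein, had 2 peaks near its starts of 370 and 143 bp, and Gabpb1, for a GABPβ subunit, had 1 of 207 bp. The nearest peak to a start of Gabpb2 was 10252 bp away. Among genes for partners of the members, Cbfb, which encodes the common partner of the RUNX factors that Ets1 binds with, had a peak of 135 bp near a start. Srf, the partner of Elk1, Elk3 and Elk4, was 89874 bp from the nearest peak, and Sin3a, for a corepressor, had a peak in its body 1456 bp from a start. That Sin3a peak held 1 CCGGAAG. Srf, Runx3, Sin3a and Gabpb2 each also held 1 CCGGAAG within 250 bp of a start, and these copies near starts were in no peak. Gabpa held 2 there, which were in a peak, and Gabpb1 and Cbfb held 0. Srf, Runx3 and Sin3a are named although none of them had a peak within 1000 bp of a start, a choice made after their values were seen.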

How the data were processed

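GABPα ChIP DNA and input DNA of CD4+ T cells were sequenced as 36-bp single-end reads. The authors used Trimmomatic to trim reads, Bowtie for alignment to mm10 and MACS2 to call peaks against the input, and deposited the positions of the peaks. The deposited list has an empty score column, so no count, height or q-value was used, and the depth of both libraries is unknown. How the authors treated reads that match several places is not given in the sources used here. The strand column was not used. Starts were taken as 0-based and printed as 1-based, so positions could be off by 1 base if the list is 1-based.

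From the list, distances were measured from the nearest edge of a peak to each distinct transcript start of GENCODE M21, and gene bodies were overlapped by at least 1 bp. Motifs were exact matches on both strands of GRCm38.p6, counted in peaks and within 250 bp of starts. Uniqueness is the share of 36-base sequences that occur 1 time on the 21 chromosomes, on either strand. Shares have Wilson 95% intervals, which cover counting error only. All 10 members were named whatever their values, and of other ETS genes and partners those with a peak near a start were named. Srf, Runx3, Sin3a, Erg, Etv4 and Spdef are exceptions chosen after their values were seen. The count over the list of partners is not reported here. Members, lists and tests were chosen with earlier results of these data known. The divisions by CGGAAG, by CpG, by number of peaks, by distance of copies from a start, by neighbouring bases and by a peak at the 5′ end were chosen after the values of the members were seen. Alternatives covered the window, the transcripts, the peaks, the motif and the definition of the gene body. RefSeq starts were added after seeing the data. The search for motifs, the call of a peak within 1000 bp of a start and the count of 36-base sequences were tested on simulated data. Distances to the nearest peak and overlaps with gene bodies were not part of that test. Calculations ran in Python 3.11.15 with scipy 1.17.1, numba 0.67.0, pandas 2.3.3 and numpy 2.4.6. The expression arrays of the study were not analysed here.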

Additional observations from a re-analysis of the deposited data

How the results depend on the processing

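Under 12 alternative settings, Elf2 and Elk4 had a peak near a start in 10. Only Elk4 had one with the 5′ end of the gene as the only start, or with only peaks that hold CCGGAAG, so that the count fell to 1 in both. The share of all protein-coding genes, 17.69% at the reported setting, was 17.18% with a window of 500 bp, 19.92% with 5000 bp, 17.19% with basic transcripts, 16.39% with the 5′ end only, 14.04% with peaks at or above the median width, 10.67% with peaks that hold CCGGAAG and 13.88% with peaks that cover a start. RefSeq starts, added after seeing the data, gave 2 ETS genes and 17.97%. Leaving out the 1000 bp around each start left 1 ETS gene, Elf4, with a peak in its body. With shorter motifs in place of CCGGAAG, 3 of the 5 peaks held CGGAAG and 4 held GGAA. The median distance of 5.5 bp from peak midpoint to start was 688 bp from the 5′ end only, and 28 bp both with protein-coding transcripts and with peaks that hold CCGGAAG. Using only peaks at or above the median width left 2 ETS genes with a peak in the body, without Elf4, whose peak is narrower. The median width of 241 bp was 353 bp with peaks within 500 bp merged and 297 bp with the widest peak of each gene. Narrower or wider windows, fewer starts or peaks and shorter motifs change these values by construction. No replicate could be left out, since there was 1 ChIP library. No paired analysis was possible because the groups hold 1 library each and the result comes from no test. Without counts per peak, weak binding below the calling limit could not be detected, and a gene without a peak is not shown to be unbound.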
